A study of Mus musculus with 12 samples.

Results

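The kidneys of Alport mice given metformin were compared with those of Alport mice given losartan. The samples were chosen by their titles, 3 with metformin and 3 with losartan, and make up 6 of the 12 samples of the series. All 22206 probe sets entered the comparison, and they cover 19505 named genes. Every mouse in both groups carried the nonsense mutation G5X in its only copy of Col4a5, the gene of a collagen IV chain on which the filter membrane of the glomerulus depends. The stated age was 16 weeks in all groups. Metformin was in the drinking water at 2.5 mg/mL from week 6 to 11 and at 5 mg/mL from week 12. Losartan was given the same way at 125 µg/mL and then at 250 µg/mL. Alport mice and wild type mice on vehicle, 3 samples each, show where a drug group lay between untreated disease and health. The labels call losartan co-administered and date the later dose up to week 20, past the stated age, so each group is named by the drug in its titles. Nothing in the labels states that each sample is a mouse of its own. The p-values therefore rest on the spread between samples, part of which may be technical.

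Losartan blocks the type 1 angiotensin II receptor and so lowers glomerular pressure and the profibrotic action of angiotensin II. Metformin is a biguanide that enters tubule cells through organic cation transporters, inhibits respiratory chain complex I and activates the AMP-activated kinase AMPK. In Alport kidneys the defective basement membrane lets protein leak into the tubule, and tubular injury, inflammation and interstitial fibrosis follow.

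Values are log2 expression values on Affymetrix Clariom S arrays of whole-kidney RNA, and a difference is metformin minus losartan. The sample medians lay between 5.94 and 5.99 in the 6 drug samples, and the median difference over all probe sets was -0.01. Pairs of samples correlated at 0.992 to 0.994 (Pearson, across probe sets, which are no replicates) within a drug group and at 0.991 to 0.993 between the groups. Metformin sample 3 stood apart from metformin samples 1 and 2 in the genes of the disease. Over the 1871 probe sets that rose in Alport vehicle against wild type (8.43% of all), the median value exceeded the wild type mean by 0.77, 0.62 and 0.38 in metformin samples 1, 2 and 3, against 0.46, 0.37 and 0.40 with losartan. For genes whose call rests on that sample, the adjusted p without it is given too. The sample was singled out after its values were seen, so such a p is a description and no further test. In whole tissue, fewer cells of a type and less RNA per cell cannot be told apart. Col4a5 read 4.64, 4.24 and 4.09 with losartan and 4.48, 4.48 and 4.50 with metformin, a difference of 0.16 ± 0.23 (SE, n = 3 per group).

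The 2 drugs differed in few single genes. Of 22206 probe sets 10 passed an adjusted p under 0.05 in limma, which is 0.045% of those tested, and 1859 (8.37%) had an unadjusted p under 0.05. Of the 10, 4 were higher with metformin (0.018%) and 6 lower (0.027%). Of these, 8 have a gene name and are described here, and 2 are probe sets without a gene name. The 3 genes Ces1g, Cyp4a12a and Cyp4a12b of xenobiotic and fatty acid metabolism and an annexin were lower with metformin, and a carbonic anhydrase, a secreted growth factor binding protein and 2 sodium-coupled carriers were higher. In all 10 the 3 metformin samples did not overlap the 3 losartan samples. That was also so for 5.77% of all probe sets with metformin higher and for 7.74% with metformin lower. An exact permutation test of 3 samples against 3 cannot go below 0.1, so single genes rest on the fit across all probe sets. Each of the 8 named genes passed without metformin sample 3, but in a fit of the 6 drug samples alone 2 of the 8 passed, Ces1g and Cyp4a12a. The median standard error of a difference was 0.198.

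**Figure D1:**
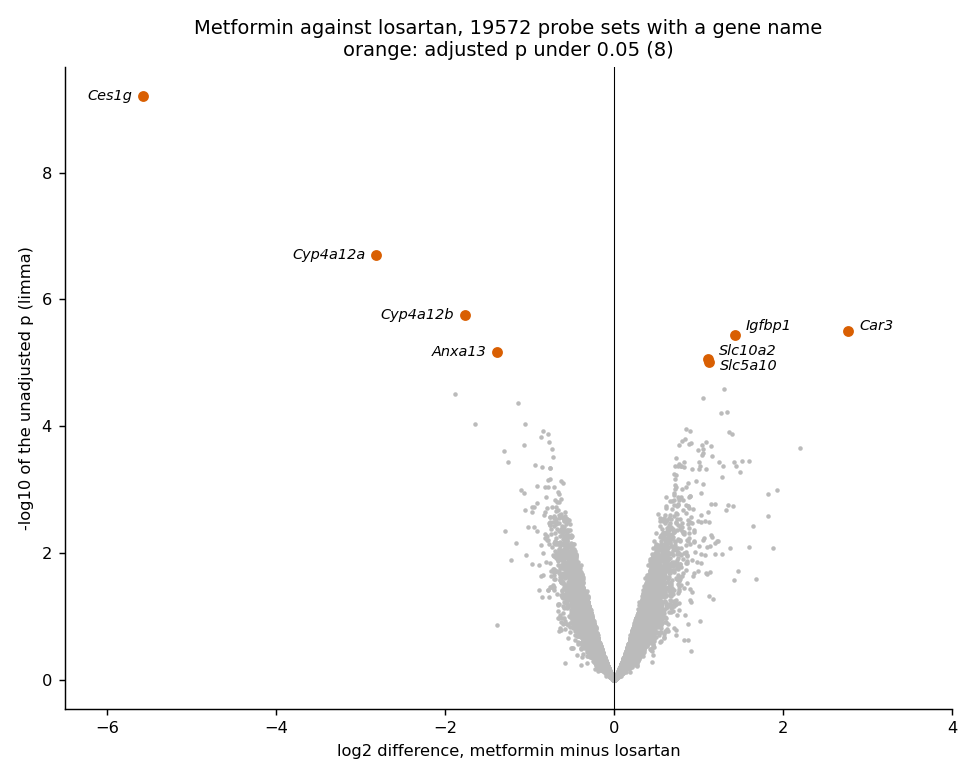
Difference between metformin and losartan (log2, horizontal) against -log10 of the unadjusted limma p (vertical) for the 19572 probe sets with a gene name. The 8 orange points passed an adjusted p under 0.05, and Ces1g lies furthest to the left at -5.58.

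Ces1g, on chromosome 8, encodes a carboxylesterase that hydrolyses lipid esters and ester drugs. It read 12.22, 11.71 and 12.45 with losartan and 7.57, 5.85 and 6.23 with metformin. These groups lay more than 4 log2 units apart at their closest samples, and each metformin value was also below all wild type values (11.30, 12.12 and 11.06) and all Alport vehicle values (10.07, 10.30 and 11.63). Ces1g was 47.7-fold lower with metformin than with losartan (-5.58 ± 0.43, limma adjusted p = 6.8e-06), and it passed in all 13 settings with a test at the same threshold, at 37.4-fold to 68-fold. Against Alport vehicle it fell by 4.12 with metformin (limma adjusted p = 0.000174) and rose by 1.46 with losartan (0.0473). Both values use the same vehicle samples, and 4.94% of probe sets passed with metformin and 7.9% with losartan in these comparisons. Against wild type, with which it shares no sample, losartan differed by 0.63 (limma adjusted p = 0.663).

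The other 14 measured carboxylesterases did not pass the test. Ces1c, a secreted esterase, read 5.72, 6.17 and 5.97 with losartan and 5.46, 5.39 and 5.35 with metformin (-0.55 ± 0.20, limma adjusted p = 0.47), with no overlap. Ces1d differed by -0.46 ± 0.23, Ces1e by -0.45 ± 0.24 and Ces1f by -0.13 ± 0.15, all with overlapping groups. Over the 15 carboxylesterases the median difference was -0.13, and 4 (26.7%) were lower in every metformin sample, against 7.74% of all probe sets. Genes of the Ces1 family are alike in sequence, so their separate values are uncertain.

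Cyp4a12a and Cyp4a12b, on chromosome 4, encode fatty acid omega-hydroxylases that make 20-HETE from arachidonic acid and are induced by androgen in the mouse kidney. Cyp4a12a read 13.43, 13.90 and 13.34 with losartan and 9.79, 11.50 and 10.93 with metformin, against 10.88, 10.79 and 11.40 with Alport vehicle and 15.36, 14.81 and 14.89 in wild type. The losartan samples thus lay between vehicle and wild type, while the metformin samples lay around the vehicle samples. Cyp4a12a was 7.05-fold lower with metformin than with losartan (-2.82 ± 0.33, limma adjusted p = 0.00146) and passed in all 13 settings. It had fallen by 4.0 in Alport vehicle against wild type (limma adjusted p = 1.22e-06). Against vehicle it rose by 2.53 with losartan (limma adjusted p = 0.000519) and differed by -0.28 with metformin (0.725).

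Cyp4a12b read 11.89, 12.91 and 12.02 with losartan and 10.28, 10.61 and 10.63 with metformin. Its highest metformin value was more than 1 log2 unit below the lowest losartan value. The difference was -1.77 ± 0.24 (3.40-fold, limma adjusted p = 0.00782), with an adjusted p of 0.0509 without metformin sample 1 and of 0.0687 in the fit of 6 samples. The sequences of both genes are nearly identical, so their separate values are uncertain. Among 25 kidney cytochrome P450 enzymes 4 (16%) were below losartan in every metformin sample and 0 above, against 7.74% and 5.77% of all probe sets. Besides these 2 genes they were Cyp2j13 (-0.61 ± 0.18) and Cyp4b1 (-0.46 ± 0.18), which did not pass (limma adjusted p = 0.364 and 0.486). All 15 male-biased kidney genes measured had an estimate below 0, with a median of -0.25, while 47.5% of all probe sets had an estimate above 0. Cyp4a12a alone among the 15 passed. Of the 15, 2 (13.3%) were below losartan in every metformin sample, against 7.74% of all probe sets.

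Anxa13, on chromosome 15, encodes a calcium-dependent phospholipid binding protein of epithelial cells. It read 7.95, 7.98 and 7.60 with losartan and 6.56, 6.01 and 6.82 with metformin, against a mean of 7.17 with vehicle and 8.52 in wild type. The drug groups lay on opposite sides of the vehicle mean. The difference was -1.38 ± 0.21 (2.60-fold, limma adjusted p = 0.0185). Leaving out losartan sample 1 or 2, or metformin sample 1 or 2, gave an adjusted p of 0.116, 0.133, 0.0648 and 0.116, and the fit of 6 samples 0.107.

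Car3, on chromosome 3, encodes carbonic anhydrase III, a cytosolic enzyme abundant in fat cells and slow muscle. It read 9.68, 10.04 and 10.01 with losartan and 11.51, 13.21 and 13.32 with metformin. Its losartan values lay near the vehicle mean of 9.83 and the wild type mean of 10.42, and all metformin samples lay above them. Car3 was 6.82-fold higher with metformin (2.77 ± 0.40, limma adjusted p = 0.0116). Leaving out losartan sample 1, losartan sample 2 or metformin sample 2 gave an adjusted p of 0.0951, 0.061 and 0.102, a trended robust prior 0.074 and the fit of 6 samples 0.0687. Against vehicle Car3 rose by 2.85 with metformin (limma adjusted p = 0.00152).

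Fat around the kidney also expresses Car3, so the fat genes were set beside it. Adipoq, the fat cell hormone adiponectin, had a mean of 3.89 with losartan and 3.51 with metformin. Plin1, which coats lipid droplets, was at 3.47 and 3.43, leptin (Lep) at 3.51 and 3.57, Ucp1 of brown fat at 3.47 and 3.08, Cidec at 4.71 and 4.55 and Retn at 4.85 and 4.77. These 6 genes were dim in both groups, and Fabp4, which endothelial cells also express, was at 10.22 and 10.18. Of 8 fat genes measured only Car3 passed the test.

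Igfbp1, on chromosome 11, encodes a secreted binding protein of insulin-like growth factors whose gene insulin represses. It read 5.45, 5.24 and 4.72 with losartan and 6.72, 6.37 and 6.61 with metformin, against means of 5.72 with vehicle and 6.22 in wild type. The losartan samples were all below the vehicle mean and the metformin samples all above it. Igfbp1 was 2.69-fold higher with metformin (1.43 ± 0.21, limma adjusted p = 0.0116). It was below wild type with losartan (-1.09, limma adjusted p = 0.0251) and differed from it by 0.34 with metformin (0.421). Leaving out losartan sample 2, losartan sample 3 or metformin sample 1 gave an adjusted p of 0.061, 0.059 and 0.0808, and the fit of 6 samples 0.0691.

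Of the 8 named genes Igfbp1 is the one whose promoter is best known for a hormone response element. The 250 bases before its start on chr11:7197537-7197786 (GRCm38.p6, RefSeq, plus strand, 5′ to 3′) are shown with capitals for CAAAACA, the core of the insulin response element bound by FOXO factors.
Igfbp1: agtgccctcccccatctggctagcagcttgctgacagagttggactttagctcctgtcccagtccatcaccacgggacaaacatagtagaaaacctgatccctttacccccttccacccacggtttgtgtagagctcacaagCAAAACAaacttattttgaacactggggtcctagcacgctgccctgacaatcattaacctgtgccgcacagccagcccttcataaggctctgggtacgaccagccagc
The core begins 108 bases before the start. On either strand it is found in the 300-base windows of 1946 of 27025 genes (7.2%), so a match by itself is common.

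Slc10a2 and Slc5a10, both sodium-coupled carriers of the proximal tubule brush border, were higher with metformin. Slc10a2, on chromosome 8, takes up bile acids. It read 10.75, 10.89 and 11.04 with losartan and 11.82, 11.82 and 12.37 with metformin, a 2.16-fold difference (1.11 ± 0.17, limma adjusted p = 0.0217). All metformin values were above the wild type mean of 11.38, and all losartan values were below it. Leaving out losartan sample 1, 2 or 3 or metformin sample 1 gave an adjusted p of 0.132, 0.133, 0.0533 and 0.0509, and the fit of 6 samples 0.154.

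Slc5a10, on chromosome 11, takes up mannose, fructose and related sugars. It read 13.96, 14.32 and 14.46 with losartan and 15.46, 15.35 and 15.29 with metformin, a 2.17-fold difference (1.12 ± 0.18, limma adjusted p = 0.0217). Its wild type mean was 14.02, within the losartan range and below every metformin sample. Against vehicle it rose with both drugs, by 0.65 with losartan (limma adjusted p = 0.034) and by 1.77 with metformin (0.000174). Leaving out losartan sample 1 or 2, or metformin sample 1 or 2, gave an adjusted p of 0.132, 0.118, 0.161 and 0.123, and the fit of 6 samples 0.107.

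**Figure D2:**
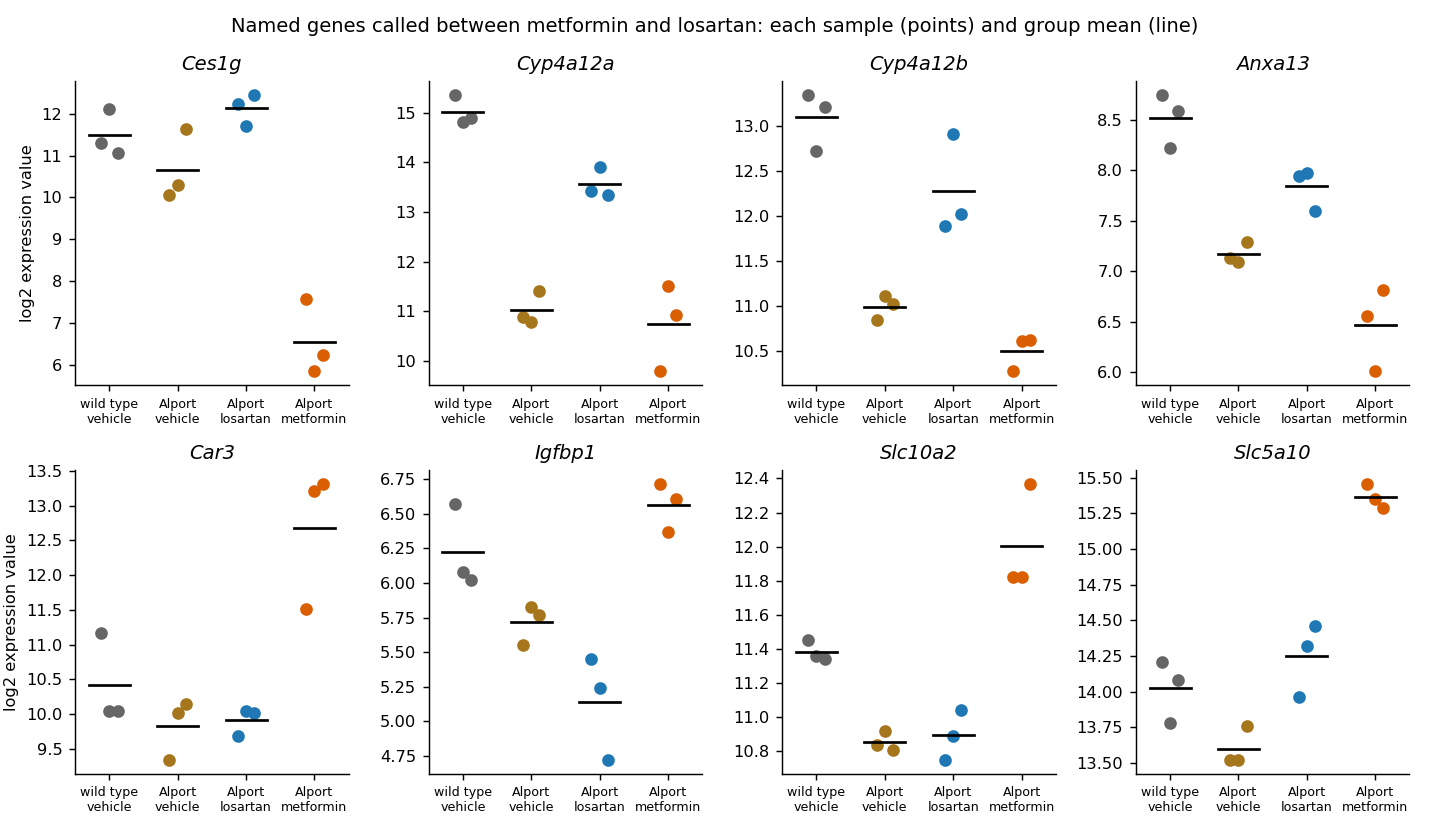
Log2 expression of the 8 named genes that passed the test, one panel per gene with its own scale; points are the 3 samples of each group and lines the group means. In every panel the metformin and losartan points do not overlap, and Ces1g lies at 5.85 to 7.57 with metformin and at 11.71 to 12.45 with losartan.

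The genes next in order of p did not pass with all samples. Higher with metformin were the histone H3 gene H3c10, at 6.37, 6.08 and 6.06 with losartan and 8.0, 7.42 and 7.0 with metformin (1.30 ± 0.22, limma adjusted p = 0.0529), Rnd2 (1.06 ± 0.19, 0.0604) and another histone H3 gene, H3c6 (1.34 ± 0.25, 0.0854). Plac8, a small cysteine-rich protein, read 8.96, 8.74 and 8.47 with losartan and 10.54, 9.87 and 9.54 with metformin (1.26 ± 0.23, limma adjusted p = 0.0854). Fam131c (0.85 ± 0.17, 0.123) and the cell cycle factor E2f1 (0.90 ± 0.18, 0.123) followed. None of these 6 overlapped between the groups. Without metformin sample 3, 4 of them passed: H3c10 (limma adjusted p = 0.00554), Rnd2 (0.0216), H3c6 (0.00758) and Plac8 (0.0121).

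On the lower side Azgp1, a secreted zinc-binding glycoprotein that mobilises lipid, read 13.90, 14.07 and 13.88 with losartan and 11.57, 11.75 and 12.87 with metformin (-1.89 ± 0.33, limma adjusted p = 0.0566). The transcription factor Etv1 read 10.49, 10.58 and 10.65 with losartan and 9.63, 9.05 and 9.62 with metformin (-1.14 ± 0.21, limma adjusted p = 0.0693). The growth factor binding protein Igfbp3 read 12.35, 12.13 and 11.87 with losartan and 10.74, 11.13 and 11.32 with metformin (-1.05 ± 0.20, limma adjusted p = 0.116). The order of the 2 drugs was thus opposite for Igfbp3 and Igfbp1, of which Igfbp1 passed with all samples. Hrg, a plasma protein that binds heparin (-1.64 ± 0.32, 0.116), the zinc finger factor Snai2 (-0.84 ± 0.17, 0.123) and Olfr455 (-0.78 ± 0.16, 0.123) completed the 10 with the smallest p on this side. Olfr455 was dim, with means of 4.17 with losartan and 3.39 with metformin. Without metformin sample 3 Azgp1 passed at -2.29 ± 0.30 (limma adjusted p = 0.00348), as did Etv1 (0.0291), Igfbp3 (0.0291) and Hrg (0.0119).

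Because so few genes passed singly, 62 lists of genes were described by counts. At an unadjusted p under 0.05 there were 942 probe sets higher with metformin (4.24%) and 917 lower (4.13%). A list is therefore read against about 4% of all probe sets at that p in either direction, and against the 5.77% and 7.74% whose samples did not overlap. In the lists described from here on no member passed an adjusted p under 0.05 with all samples unless it is said.

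**Figure D3:**
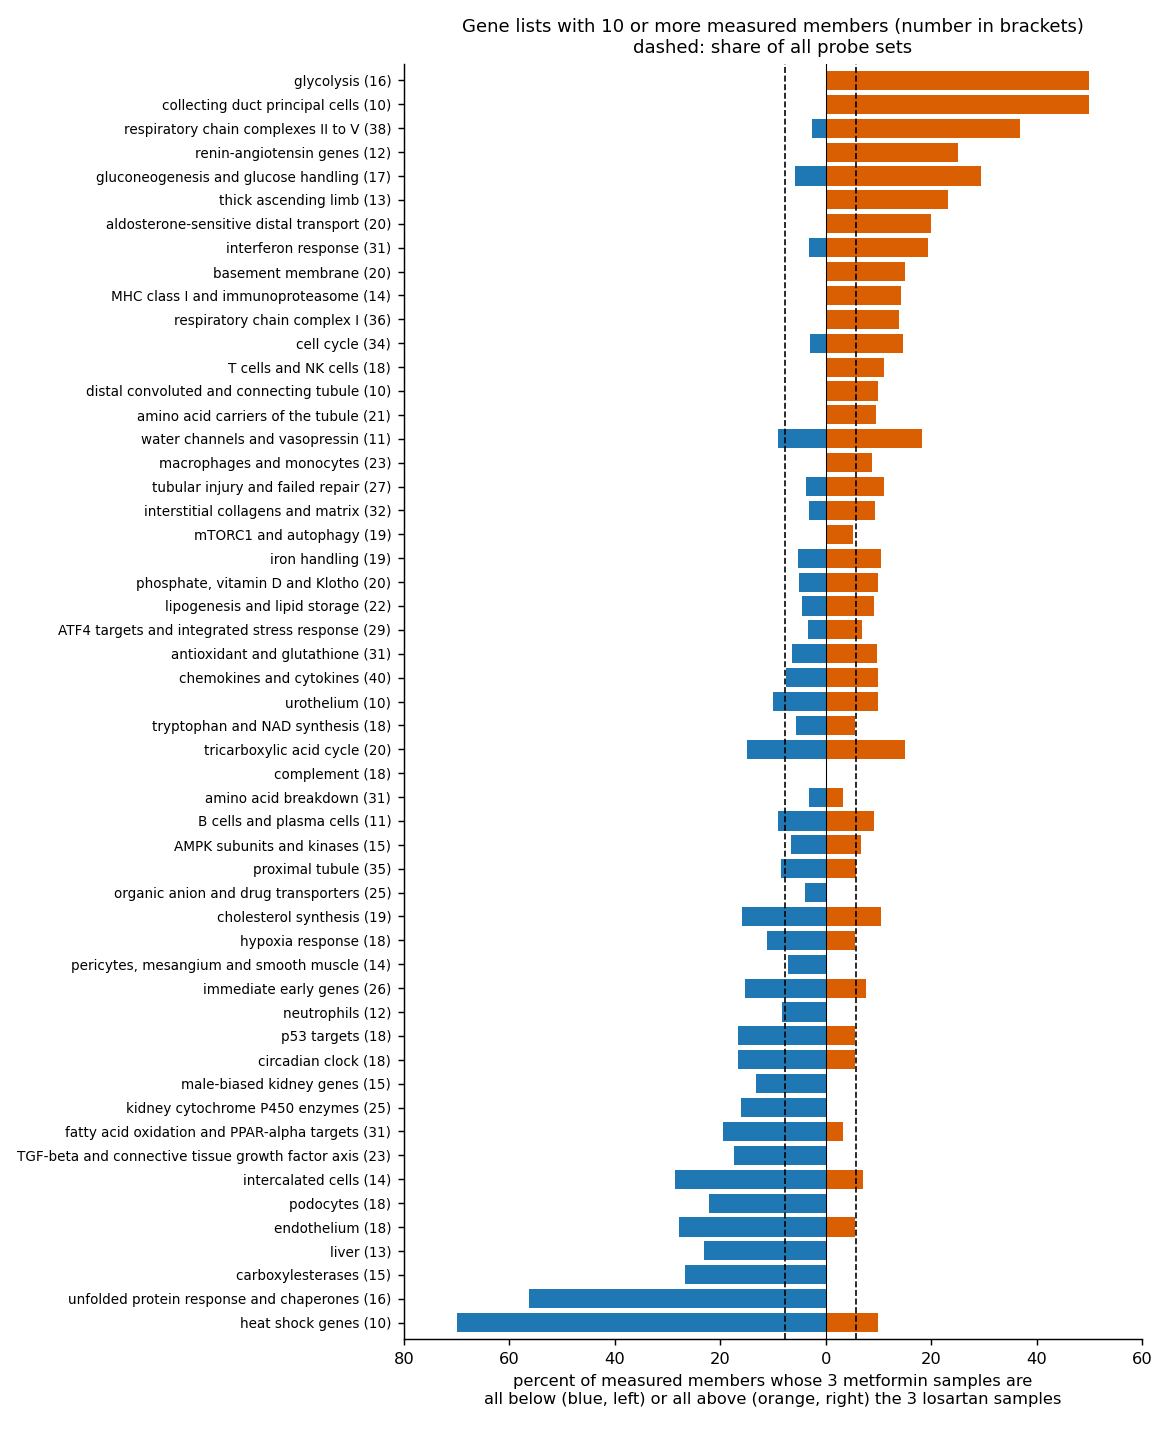
Share of each list's measured members whose 3 metformin samples lay all below (blue bars to the left, percent) or all above (orange bars to the right, percent) the 3 losartan samples, for lists of 10 or more members; dashed lines give 7.74% and 5.77% of all probe sets. Heat shock genes (70%) and the unfolded protein response (56.2%) reach furthest to the left, and glycolysis and principal cells (50% each) furthest to the right.

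Genes of protein folding were lower with metformin than with losartan. The unfolded protein response raises chaperones and folding enzymes of the endoplasmic reticulum when unfolded protein builds up there. All 16 measured members had an estimate below 0, 9 of them (56.2%) were below losartan in every metformin sample, and the median was -0.20. Creld2, a disulfide isomerase that responds to such stress, read 9.41, 9.52 and 9.63 with losartan and 8.47, 8.15 and 8.82 with metformin (-1.04 ± 0.36, limma adjusted p = 0.441). Hspa5, the chaperone BiP, read 17.29, 17.58 and 17.70 with losartan and 17.15, 17.23 and 17.05 with metformin (-0.38 ± 0.23). Even the lowest losartan value of Hspa5 lay just above the highest metformin value. Dnajb11 (-0.49 ± 0.20) and Dnajb9 (-0.38 ± 0.19), both co-chaperones of Hspa5, and Sel1l (-0.35 ± 0.19), part of the machinery that removes misfolded protein, were also lower in every metformin sample, as were Calr, Dnajc3, Hyou1 and Pdia3. Only 2 of the 16, Creld2 and Dnajb11, had an unadjusted p under 0.05, so the differences were small and shared rather than large. The mean of the list was 0.22, 0.29 and 0.28 below the losartan mean in metformin samples 1, 2 and 3. Against Alport vehicle the median over the list was 0.33 with losartan and 0.09 with metformin. The metformin list means of 13.23, 13.16 and 13.17 lay within the ranges of wild type (13.06 to 13.41) and vehicle (12.81 to 13.36). Metformin thus lay below losartan, but not below vehicle or wild type.

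Many of these genes carry the endoplasmic reticulum stress element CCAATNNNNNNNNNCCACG, to which ATF6 and NF-Y bind. It was found on either strand in the window from 250 bases before to 50 bases after the start in 7 of the 15 members with a RefSeq window (46.7%), and in 37 of 27025 genes (0.137%). Of the 8 members with a window that were lower in every metformin sample, 4 held it. Pdia6, Hsp90b1 and Canx also held it but were not among those lower in every metformin sample. The list was chosen as genes of this response, so its share with the element says nothing of the drugs. The matches in these 7 members are printed 5′ to 3′ on the strand of the match, with the fixed letters in capitals.
Creld2, chr15:88819520-88819538: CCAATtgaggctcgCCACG
Hspa5, chr2:34772025-34772043: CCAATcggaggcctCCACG
Calr, chr8:84847075-84847093: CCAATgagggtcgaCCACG
Dnajc3, chr14:118937827-118937845: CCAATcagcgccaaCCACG
Pdia6, chr12:17266491-17266509: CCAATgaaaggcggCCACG
Hsp90b1, chr10:86705638-86705656: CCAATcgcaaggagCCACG
Hsp90b1, chr10:86705533-86705551: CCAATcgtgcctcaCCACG
Canx, chr11:50325800-50325818: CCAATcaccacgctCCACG
The match of Hspa5 begins 65 bases before its start, and the 250 bases before the start on chr2:34771840-34772089 (GRCm38.p6, RefSeq, plus strand) show its place.
Hspa5: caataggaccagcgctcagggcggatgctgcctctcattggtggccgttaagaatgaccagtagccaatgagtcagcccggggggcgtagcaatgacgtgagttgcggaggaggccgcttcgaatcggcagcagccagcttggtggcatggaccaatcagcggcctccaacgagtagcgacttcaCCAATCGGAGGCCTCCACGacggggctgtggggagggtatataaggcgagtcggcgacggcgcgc
A match is a description of the letters and says nothing of whether a factor was bound.

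The cytosolic heat shock genes, chaperones of the cytosol and mitochondria, were also lower with metformin than with losartan. Of 10 measured 7 (70%) were below losartan in every metformin sample, 1 was above, and the median was -0.30. The list means with metformin were 10.333, 10.401 and 10.135, near those of wild type at 10.194, 10.483 and 10.256. With vehicle they were 10.184, 10.914 and 10.782. Against vehicle the median was -0.07 with losartan and -0.20 with metformin. Hsph1, which helps to dissolve aggregates, read 13.30, 13.68 and 13.75 with losartan and 12.29, 12.61 and 12.79 with metformin (-1.01 ± 0.30, limma adjusted p = 0.356). The stress-induced Hspa1b read 9.47, 9.62 and 9.12 with losartan and 8.46, 8.76 and 8.32 with metformin (-0.89 ± 0.33). In both genes the metformin samples lay clear of the losartan samples, as did those of the co-chaperone Dnajb1 (-0.57 ± 0.25). Hspb8, a small heat shock protein of selective autophagy, ran the other way (0.83 ± 0.26). The heat shock element, searched as the blocks GAA, TTC and GAA set 2 bases apart, was found on either strand in 3 of 9 members with a window (33.3%) and in 179 of 27025 genes (0.662%). Of its matches 2 are printed, with the fixed letters in capitals, the second of them in the promoter shared by Hspd1 and Hspe1.
Hsph1, chr5:149636288-149636300: GAActTTCcaGAA
Hspd1 and Hspe1, chr1:55088064-55088076: GAAccTTCcgGAA

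Targets of ATF4, the factor of the integrated stress response, were measured too. Of 29 measured 3 were higher and 1 lower at an unadjusted p under 0.05, and the median was 0.07, or -0.01 without metformin sample 2. Asns, asparagine synthetase (0.86 ± 0.31, and limma adjusted p = 0.0422 without metformin sample 3), and the amino acid carrier Slc7a5 (0.77 ± 0.24) were higher and Chac1, which degrades glutathione, was lower (-0.53 ± 0.18).

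Genes of glucose breakdown were higher with metformin. Of 16 glycolysis genes 6 were higher at an unadjusted p under 0.05 and 0 lower, 8 (50%) were above losartan in every metformin sample, and the median was 0.24. Pfkp, the platelet form of phosphofructokinase, read 10.51, 10.73 and 10.45 with losartan and 11.51, 11.53 and 10.98 with metformin (0.78 ± 0.20, limma adjusted p = 0.267). Pgam1, phosphoglycerate mutase, read 11.70, 12.02 and 11.95 with losartan and 12.60, 12.51 and 12.56 with metformin (0.67 ± 0.18). Neither gene overlapped between the groups. Pkm, the pyruvate kinase of non-gluconeogenic cells, differed by 0.54 ± 0.15 without overlap, and Pklr, the liver and kidney form, by 0.82 ± 0.25 with overlap, since metformin sample 3 (8.43) lay below losartan sample 2 (8.61), and without it Pklr passed (limma adjusted p = 0.0158). The mean of the list was 0.37, 0.34 and 0.22 above the losartan mean in metformin samples 1, 2 and 3.

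Among 17 genes of gluconeogenesis and glucose handling 3 were higher at that p and 0 lower. Pdk4, which inhibits pyruvate dehydrogenase and so spares glucose, read 7.64, 8.09 and 7.11 with losartan and 8.93, 9.22 and 8.40 with metformin (1.24 ± 0.28, limma adjusted p = 0.15, and 0.0416 without metformin sample 3). All metformin values of Pdk4 were above the losartan values. The sodium glucose carrier Slc5a1 differed by 0.76 ± 0.20 and the glucose-responsive Txnip by 0.66 ± 0.26, both without overlap.

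Subunits of the respiratory chain, whose complex I metformin inhibits, had estimates mostly above 0, but the list means overlapped between the drugs. Relative to the losartan mean, complex I lay at 0.11, -0.05 and 0.35 in metformin samples 1, 2 and 3. Complexes II to V lay at 0.18, 0.02 and 0.40. Metformin sample 2 was inside the losartan range in both lists. In complexes II to V 14 of 38 genes (36.8%) were above losartan in every metformin sample and 1, Atp5a1, below, with a median of 0.21. Uqcr10 of complex III read 12.94, 12.40 and 12.60 with losartan and 13.09, 13.02 and 13.56 with metformin (0.58 ± 0.21). Cyc1, cytochrome c1, differed by 0.51 ± 0.20, Cox6b1 of complex IV by 0.41 ± 0.17 and Atp5e of the ATP synthase by 0.67 ± 0.28, the last with overlap. Metformin sample 3 had the highest value of the 6 in these 4 genes. Of 36 complex I genes 5 (13.9%) were above losartan in every metformin sample, with Ndufa2 at 0.53 ± 0.18, Ndufa3 at 0.39 ± 0.17 and Ndufa11 at 0.36 ± 0.16. The complex I median of 0.12 was 0.02 without metformin sample 3, and that of complexes II to V was 0.13 without it.

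Genes of fatty acid oxidation went both ways, with 22 of 31 estimates below 0. In every metformin sample 6 (19.4%) were below losartan and 1 (3.23%) above. Of 31 such genes and targets of PPAR-alpha, the lipid-sensing nuclear receptor, 3 were lower and 1 higher at an unadjusted p under 0.05, with a median of -0.10, or 0.01 without metformin sample 2. Cyp4a12a, described above, was the one that passed. Ehhadh of peroxisomal oxidation (-0.47 ± 0.18) and the mitochondrial dehydrogenase Acadl (-0.39 ± 0.17) were lower, and Cpt1b, the muscle form of the carnitine transferase, was higher (0.75 ± 0.28). For 20 genes of the tricarboxylic acid cycle the median was -0.03.

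Genes that carry the drugs or stand on their pathways differed little. Slc22a2, the basolateral organic cation carrier of metformin, read 16.72, 17.04 and 16.82 with losartan and 16.74, 16.82 and 16.73 with metformin (-0.10 ± 0.18). Slc47a1, which exports metformin into urine, differed by -0.08 ± 0.17, and the median over 5 carriers was -0.02. The AMPK catalytic subunits Prkaa1 and Prkaa2 differed by -0.43 ± 0.19 and -0.27 ± 0.17, and Camkk2, a kinase that activates AMPK, by 0.72 ± 0.23. Rptor, the mTORC1 subunit that AMPK phosphorylates, read 7.87, 7.95 and 8.03 with losartan and 8.86, 8.36 and 8.80 with metformin (0.72 ± 0.17, limma adjusted p = 0.2). Camkk2 and Rptor were above losartan in every metformin sample and Prkaa1 below.

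Of 12 renin-angiotensin genes 3 were above losartan in every metformin sample and 0 below. Agt, the precursor of angiotensin, read 12.54, 12.47 and 12.55 with losartan and 13.29, 13.39 and 12.79 with metformin (0.64 ± 0.19, limma adjusted p = 0.359). The losartan values of Agt lay within 0.1 of each other and below all metformin values. Ace, the converting enzyme (0.23 ± 0.22), and Agtr1a, the receptor that losartan blocks (-0.28 ± 0.22), overlapped between the drugs.

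Along the nephron, markers of principal cells and of the thick ascending limb were mostly higher with metformin and those of intercalated cells mostly lower. Principal cells of the collecting duct reabsorb sodium and water, and 5 of their 10 markers were above losartan in every metformin sample, with a median of 0.42. Fxyd4, a regulator of the sodium pump, read 8.77, 9.56 and 9.19 with losartan and 10.01, 10.25 and 10.37 with metformin (1.04 ± 0.22, limma adjusted p = 0.145). The water channel Aqp2 read 14.26, 14.40 and 14.23 with losartan and 14.79, 15.72 and 14.99 with metformin (0.87 ± 0.28). Likewise the vasopressin receptor Avpr2 read 7.13, 6.94 and 7.15 with losartan and 7.30, 7.59 and 8.04 with metformin (0.57 ± 0.19). Hsd11b2, which keeps glucocorticoids from the mineralocorticoid receptor (0.62 ± 0.22), and the sodium channel subunit Scnn1b (0.44 ± 0.20) also did not overlap. Each of these 5 genes thus separated the drugs in all 6 samples.

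In the thick ascending limb 3 of 13 markers were above losartan in every metformin sample, with a median of 0.32, which was 0.10 without losartan sample 1. They were the tight junction gene Cldn19 (0.63 ± 0.19), the chloride channel subunit Bsnd (0.59 ± 0.24) and Umod, the most abundant urinary protein, at 18.62, 18.78 and 18.88 with losartan and 18.93, 18.94 and 18.91 with metformin (0.17 ± 0.15). Slc12a1, the sodium, potassium and chloride cotransporter of this segment, differed by 0.46 ± 0.20 with overlap. In the distal convoluted and connecting tubule 1 of 10 markers was above losartan in every metformin sample, and the list means overlapped. Its calcium channel Trpv5 differed by 1.20 ± 0.39 with overlap, and by 1.77 ± 0.30 without metformin sample 3 (limma adjusted p = 0.0158).

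Intercalated cells, which secrete acid or base in the collecting duct, lay on the other side. Of 14 markers 6 were lower at an unadjusted p under 0.05 and 0 higher, with a median of -0.25. The chloride bicarbonate exchanger Slc26a4 read 10.94, 10.26 and 10.77 with losartan and 9.48, 9.57 and 10.02 with metformin (-0.97 ± 0.26, limma adjusted p = 0.298). Foxi1, the factor that defines these cells, read 9.83, 10.16 and 10.05 with losartan and 9.49, 9.26 and 9.44 with metformin (-0.62 ± 0.19). Both were below losartan in every metformin sample, as was the receptor gene Kit (-0.68 ± 0.20), which mast cells also express, while Atp6v0d2 of the proton pump overlapped (-0.71 ± 0.25). The medians of principal and intercalated markers of the same tubule thus lay on opposite sides of 0. Single markers went both ways. Of the 14 intercalated markers 5 had an estimate above 0, 1 of them above losartan in every metformin sample. Of the 10 principal cell markers 2 had an estimate below 0.

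Endothelial markers were lower in 5 of 18 at an unadjusted p under 0.05 and higher in 0, with a median of -0.16. Kdr, the receptor for vascular endothelial growth factor, read 12.38, 12.25 and 12.44 with losartan and 11.01, 11.76 and 11.73 with metformin (-0.86 ± 0.19, limma adjusted p = 0.15). Sox18 (-0.54 ± 0.19), Plvap of fenestrated vessels (-0.48 ± 0.19) and Ehd3 of glomerular vessels (-0.65 ± 0.25) were lower too, while the brightest marker, Eng, differed by 0.08 ± 0.19. The list median was -0.07 without metformin sample 1 and -0.25 without metformin sample 3.

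Of 18 podocyte markers 4 (22.2%) were below losartan in every metformin sample and 0 above, with a median of -0.125. Among them were Thsd7a, a podocyte membrane protein (-0.49 ± 0.19), and Synpo of the cytoskeleton (-0.40 ± 0.16), while the slit diaphragm gene Nphs1 overlapped (-0.14 ± 0.20). Over 35 proximal tubule markers the median was 0.00 to 2 decimals, and the phosphate carrier Slc34a1 read 18.92, 18.93 and 18.84 with losartan and 18.81, 19.01 and 18.86 with metformin. In the proximal tubule list 1 marker was lower at an unadjusted p under 0.05, the factor Hnf4a (-0.39 ± 0.16), and 0 were higher. Carriers higher with metformin among those for phosphate were Slc34a2 (1.49 ± 0.35, limma adjusted p = 0.168) and Slc20a1 (0.95 ± 0.30, 0.4). Both passed without metformin sample 3, at an adjusted p of 0.00396 and 0.0456.

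Markers of fibrosis, injury and inflammation were mostly higher with metformin samples 1 and 2 and overlapped with losartan in sample 3. Of 32 genes of interstitial matrix 13 were higher at an unadjusted p under 0.05 and 1 lower, with a median of 0.45, or 0.705 without metformin sample 3. Col1a1, the main fibrillar collagen, read 7.92, 7.16 and 7.82 with losartan and 9.45, 9.87 and 7.79 with metformin (1.40 ± 0.38, limma adjusted p = 0.298). The third metformin value lay between the losartan values, and without it Col1a1 was higher by 2.03 (limma adjusted p = 0.00181). Col3a1 read 10.35, 9.07 and 9.90 with losartan and 11.57, 11.60 and 10.39 with metformin (1.41 ± 0.32, limma adjusted p = 0.15, and 0.00931 without that sample). The protease inhibitor Timp1 (1.37 ± 0.46, and limma adjusted p = 0.0237 without that sample) and Mgp (0.89 ± 0.28) were next. Acta2 of myofibroblasts and vessel walls overlapped, at 11.33, 12.16 and 12.26 with losartan and 12.57, 11.85 and 11.57 with metformin (0.08 ± 0.32).

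Of 27 genes of tubular injury and failed repair 9 were higher at an unadjusted p under 0.05 and 0 lower, with a median of 0.45, or 0.795 without metformin sample 3 and 0.25 without metformin sample 1. Havcr1, the injury marker KIM-1, read 12.91, 11.45 and 11.97 with losartan and 14.55, 14.03 and 12.15 with metformin (1.47 ± 0.56, limma adjusted p = 0.493). Clusterin (Clu) read 16.35, 15.73 and 16.17 with losartan and 18.05, 17.48 and 16.29 with metformin (1.19 ± 0.32, limma adjusted p = 0.291, and 0.00472 without metformin sample 3). In both genes metformin sample 3 lay within the losartan range. Lcn2, secreted by injured tubules, ranged from 11.80 to 15.55 with losartan and from 13.15 to 15.04 with metformin (0.83 ± 0.68). Itgb6 (0.62 ± 0.21) and Krt7 (0.43 ± 0.18) were above losartan in every metformin sample.

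Macrophage and MHC class II genes were also highest in metformin sample 1. For 23 macrophage and monocyte genes the median was 0.53, or 0.875 without metformin sample 3 and 0.22 without metformin sample 1, and 7 were higher at an unadjusted p under 0.05. Lyz2, lysozyme of myeloid cells, read 10.44, 9.84 and 10.26 with losartan and 12.56, 12.25 and 10.67 with metformin (1.65 ± 0.49, limma adjusted p = 0.346, and 0.0426 without sample 3). Of 8 genes of MHC class II presentation 5 were higher at that p, with a median of 1.06, or 1.54 without metformin sample 3 and 0.62 without metformin sample 1. H2-Eb1 read 10.85, 10.04 and 10.39 with losartan and 12.65, 11.75 and 10.54 with metformin (1.22 ± 0.39, and limma adjusted p = 0.0213 without sample 3), and the H2 genes are alike enough that their separate values are uncertain. The list mean lay 1.41, 0.94 and -0.03 from the losartan mean in metformin samples 1, 2 and 3, so the third sample was level with losartan.

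The chemokine Cxcl10 read 7.05, 6.50 and 6.56 with losartan and 8.97, 8.73 and 7.19 with metformin (1.59 ± 0.35, limma adjusted p = 0.15, and 0.00167 without sample 3). Irf7, a factor of the interferon response, differed by 1.12 ± 0.32 without overlap, and complement C4b by 1.92 ± 0.48 with overlap (limma adjusted p = 0.00561 without sample 3). Of 31 interferon response genes 8 were higher at an unadjusted p under 0.05 and 0 lower, of 18 complement genes 3 and 0, and of 40 chemokines and cytokines 6 and 1. Myc read 9.19, 9.08 and 9.26 with losartan and 10.76, 10.25 and 9.99 with metformin (1.16 ± 0.25, limma adjusted p = 0.149, and 0.0461 without sample 3) and did not overlap. Immediate early genes were split, with 6 of 26 higher and 4 lower, among them Ier3 (-0.68 ± 0.22). Id2, a target of bone morphogenetic protein signals, was lower in every metformin sample (-0.70 ± 0.18).

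Cell cycle genes were higher in 11 of 34 and lower in 1 at an unadjusted p under 0.05, with a median of 0.44. The spindle checkpoint gene Bub1b, dim with losartan, read 3.55, 4.02 and 4.57 there and 6.00, 5.11 and 5.09 with metformin (1.35 ± 0.27, limma adjusted p = 0.123). Mki67 read 7.10, 6.86 and 7.29 with losartan and 8.48, 8.58 and 7.17 with metformin (0.99 ± 0.29), so that metformin sample 3 lay inside the losartan range. Cyclin B2 (Ccnb2) differed by 0.90 ± 0.23 without overlap. Without that sample all 3 passed, Mki67 at 1.45 ± 0.20 (limma adjusted p = 0.00554), Bub1b at 1.51 ± 0.30 (0.0386) and Ccnb2 at 1.20 ± 0.20 (0.0158).

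**Figure D4:**
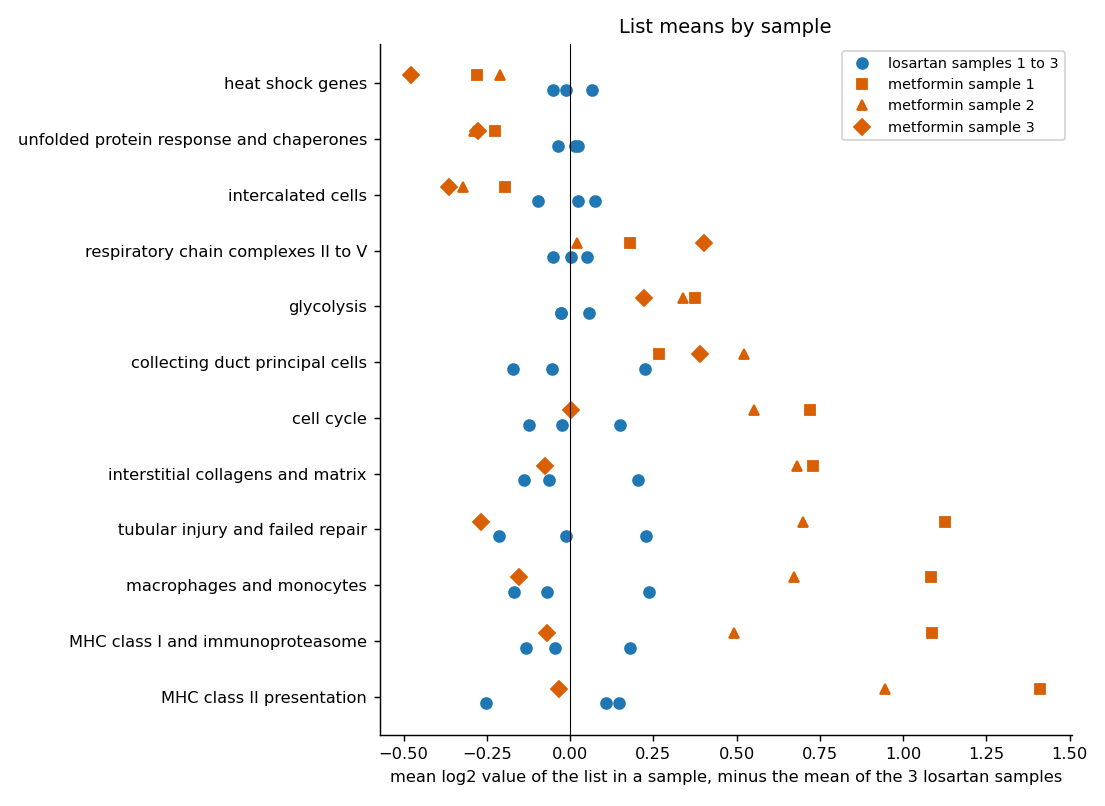
Mean log2 value of a list in a sample minus the mean of the 3 losartan samples, for 12 lists; circles are losartan samples and squares, triangles and diamonds are metformin samples 1, 2 and 3. In the lower 6 lists metformin sample 3 lies among the losartan samples or just below them, with MHC class II presentation at 1.41, 0.94 and -0.03, while for heat shock genes all metformin samples lie to the left.

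The comparison of the drugs shares no sample with that of Alport vehicle and wild type, so the genes changed by the disease could be followed in it. Both come from the same fit and share each gene's estimate of the spread. Genes with a small spread can therefore pass more readily in both, which can raise the shares at a given p. Of the 1871 probe sets that rose in Alport vehicle 323 (17.3%) were higher with metformin than with losartan at an unadjusted p under 0.05 and 31 (1.66%) lower. Their median difference was 0.20, and 76.9% had an estimate above 0. Of the 1711 that fell in Alport vehicle (7.71% of all) 48 (2.81%) were higher and 167 (9.76%) lower, with a median of -0.08. Among the 18624 that did not pass in Alport vehicle against wild type 571 (3.07%) were higher and 719 (3.86%) lower. Not passing with 3 samples a group does not show that a gene was unchanged.

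By sample, the median excess over wild type of the genes that rose was 1.13, 0.86 and 1.21 with vehicle, and all drug samples lay below the vehicle samples. Both sets of genes were chosen by these same vehicle and wild type samples, so the vehicle medians are extreme by selection. Samples not used in the choice tend to lie nearer wild type, so no effect of a drug against vehicle is read from these medians. Metformin samples 1 and 2, at 0.77 and 0.62, lay between vehicle and losartan, and metformin sample 3, at 0.38, lay inside the losartan range of 0.37 to 0.46. For the genes that fell the vehicle samples had medians of -0.98, -0.70 and -0.86. The losartan medians were -0.32, -0.19 and -0.31, and the metformin medians -0.43, -0.41 and -0.25. Set against wild type, 122 probe sets passed with losartan (0.549%) and 928 with metformin (4.18%); both counts use the same wild type samples.

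**Figure D5:**
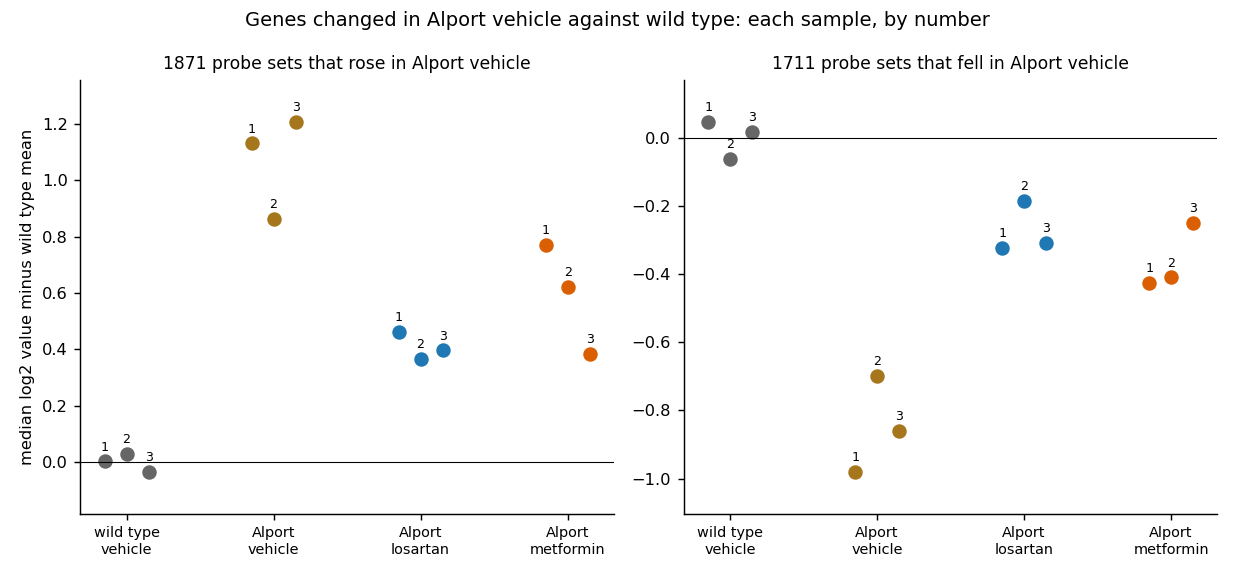
Median over probe sets of a sample's log2 value minus the wild type mean, for the 1871 that rose (left panel) and the 1711 that fell (right panel) in Alport vehicle; points are samples, with their numbers. Metformin samples 1 and 2 lie at 0.77 and 0.62 on the left, and metformin sample 3 lies at 0.38 among the losartan samples.

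Without metformin sample 3 the count of probe sets that passed went from 10 to 91 (0.41%), with 77 higher with metformin (0.347%) and 14 lower (0.063%). Of the 77 higher, 60 were among those that rose in Alport vehicle and 1 among those that fell, and of the 14 lower, 11 were among those that fell. In 34 of the 77 metformin sample 3 lay inside the losartan range, in 34 above it, and in 74 below both other metformin samples. Genes that gain a call without a sample are mostly those in which it lay nearer the other group. These counts, and the share of disease genes, thus follow in part from the choice of sample and are no separate support. Aoc1, a diamine oxidase chosen after its values were seen, read 7.94, 7.33 and 7.5 with losartan and 10.44, 10.02 and 7.78 with metformin (2.64 ± 0.25 without sample 3, limma adjusted p = 0.000167, and 0.251 with it). By list the 77 held 5 cell cycle genes and 4 each of interstitial matrix, MHC class II presentation and tubular injury. In the fit with array weights metformin sample 3 had a weight of 0.899, against 1.132 and 1.129 for metformin samples 1 and 2. The vehicle samples had lower weights, of 0.876, 0.814 and 0.712. The RNA quality of metformin sample 3 was not tested.

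With all samples, Car3 alone passed among the markers of tissues around the kidney and of blood. The brightest marker of the adrenal cortex, Hsd3b1, had a mean of 5.80 with losartan and 5.96 with metformin, that of skeletal muscle, Pvalb, 7.12 and 7.41, and that of the pancreas, Cela2a, 5.10 and 5.02. Pvalb is also expressed in the distal convoluted tubule. Ttr, the brightest of the liver list and a plasma carrier protein, was at 14.14 with losartan and 13.03 with metformin (-1.11 ± 0.28). The liver list went both ways, with 2 of 13 higher and 2 lower at an unadjusted p under 0.05 and a median of 0.15. Its fibrinogen genes Fga (1.82 ± 0.51) and Fgg (1.88 ± 0.62), which injured tubules also express, were higher, and passed without metformin sample 3 (limma adjusted p = 0.0424 and 0.0416). Apoh was lower (-1.26 ± 0.28, and limma adjusted p = 0.00422 without losartan sample 3). Slc4a1 of red blood cells and intercalated cells was at 6.78 and 6.60, Elane of neutrophils at 5.45 and 5.18, and Cd4 at 6.96 and 6.92. Sdc1 of plasma cells and epithelium was at 8.07 and 8.65.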

How the data were processed

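Whole-kidney RNA was hybridised to Affymetrix arrays after conversion to labelled DNA, per the labels' protocols. The authors deposited log2 values of 22206 probe sets in each sample. The log2 scale was read from the values. The software was Transcriptome Analysis Console 4.0, per the submitters' processing notes. Its background correction, normalization and summarisation are settings not given in the sources used. The number of arrays limits the precision.

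Gene names came from the platform annotation, updated by Entrez identifier in a RefSeq table (GRCm38.p6): 19572 have 1 symbol, covering 19505 genes, and 2634 have none here. For 55 symbols with several probe sets, lists used the brightest. Near-identical genes can share signal.

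Samples were grouped by title. A mean per group was fitted to all 12 samples with limma 3.58.1 in R 4.3.3 (lmFit, eBayes, 8 residual degrees of freedom), two-sided, with Benjamini-Hochberg adjustment over all probe sets and a threshold of 0.05. Verbs of change are used only past that threshold. Errors are standard errors. The procedure was tested on simulated data.

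The comparison, the 62 lists (1145 genes, 1053 measured) and the rules were chosen with earlier results of these data known, and the motifs after the values of their genes were seen. Lists are described by counts and medians, with no test. Named genes are a fixed set, all called genes and the next by p up to 10 in a direction, up to 4 members with the smallest p per described list, and the brightest marker of other cell types; further members whose groups did not overlap, and members named as examples, were chosen after their values were seen. Some genes of the fixed set are not reported here. Motifs were searched on both strands of RefSeq windows from 250 bases before to 50 after the start, which 27025 genes have, among them 4 of the 8 called genes. Alternatives were centring, quantile normalization, a filter of the 33.3% dimmest probe sets, a trended robust prior, array weights, the 6 drug samples alone, other thresholds, a replicate block, the mean of a symbol's probe sets and leaving out each sample.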

Additional observations from a re-analysis of the deposited data

How the results depend on the processing

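Signs were compared for the single genes named, not for all probe sets. None that passed with all samples changed sign under an alternative. None that passed under an alternative had there the opposite sign to that with all samples. Of the 62 list medians 20 changed sign under at least 1 alternative. Among the medians given above, those of fatty acid oxidation (-0.16 to 0.01), ATF4 targets (-0.01 to 0.16) and the liver list (-0.04 to 0.19) did so when 1 sample was left out. So did those of the tricarboxylic acid cycle (-0.08 to 0.03), the metformin carriers (-0.12 to 0.00) and the proximal tubule (-0.06 to 0.04). The count of 10 probe sets (4 higher with metformin, 6 lower) was 12 with each sample centred on its median, 10 with a new quantile normalization, 11 without the dimmest 33.3% of probe sets and 13 with a trended robust prior. It was 17 with array weights (8 higher), 101 at an unadjusted p under 0.05 with at least a 2-fold change (77 higher, 24 lower) and 1859 at an unadjusted p alone (942 higher, 917 lower). In a limma fit of the 6 drug samples alone it was 3, with 0 higher and 3 lower, and at an unadjusted p under 0.05 that fit gave 995 higher and 956 lower. Without losartan sample 2, where 0 were higher, 777 were higher at that p. Leaving out 1 sample gave 5 to 91 in all, 0 to 77 higher and 4 to 14 lower: 6, 5 and 9 without losartan samples 1, 2 and 3, and 6, 8 and 91 without metformin samples 1, 2 and 3. The share of calls that were higher with metformin was 40% in the fit of 12 samples, 76.2% at the 2-fold threshold, 84.6% without metformin sample 3, 16.7%, 0% and 22.2% without losartan samples 1, 2 and 3, and 0% in the fit of 6. With the replicate number as a block it was 15 (7 higher, 8 lower). Metformin and losartan samples of the same number did not deviate together (correlations of 0.017, -0.041 and -0.004). The values thus gave no sign of pairing by number, but deviations from means of 3 samples cannot exclude it. Among the single genes named, 19 results lost their call and 37 gained one when a sample was left out, 36 of them without metformin sample 3, and under the other alternatives 7 lost and 216 gained one. List medians moved beyond the spread in 23 cases with a sample left out and in 2 others. With 3 samples a group, differences near the median standard error of 0.198 were not detectable.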

Other observations

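The replication-dependent histone genes, chosen after their values were seen, were higher with metformin than with losartan in 40 of 49 measured by estimate, with a median difference of 0.34. At an unadjusted p under 0.05, 18 were higher and 1 lower, and 18 were above losartan in every metformin sample and 1 below; none passed an adjusted p under 0.05 in limma. Their mean log2 value was 7.91, 7.70 and 7.74 with losartan, 8.48, 8.01 and 8.03 with metformin, 8.62, 8.66 and 8.5 with Alport vehicle and 7.73, 7.88 and 7.83 in wild type. All metformin samples lay between losartan and vehicle, metformin sample 3 among them. The genes are alike in sequence and can share signal, and many of their transcripts carry no poly(A) tail, so the separate values are uncertain.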
